A study of Homo sapiens with 6 samples.

Results

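Beta tubulins were measured in RH36 cells, a PAX3/FOXO1-negative embryonal rhabdomyosarcoma (ERMS) line, after transfection with pre-miR-27a or with the negative pre-control. They comprise every probe that the array files name TUBB, TUBB1, TUBB2A, TUBB2B, TUBB2C, TUBB3, TUBB4 or TUBB6, which gave 16 of the 41000 probes on the array and 8 of its 30484 gene names. TUBB2C is the older name of TUBB4B and TUBB4 that of TUBB4A, by a match of the RefSeq accession of each probe. TUBB1 was chosen by its log2 fold change in this same contrast, the largest rise among named genes. Its signals are therefore given as a description, with no test. The other 7 genes were taken by name.

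Each group had 3 arrays, labelled as biological replicates of 1 cell line, and each array carried Cy3-labelled RNA from 1 transfection. Pre-miR-27a is a synthetic precursor that raises the mature miR-27a, and pre-control is a precursor with no intended target. Neither group carries a genetic change made for the study. For arrays of the pre-miR-27a group the sample labels give 10 nM of precursor delivered with siPORT, and 48 hours after transfection. No dose or time was recorded for the pre-control arrays. The methods of the study give another concentration, reagent and time for transient transfection of RH36 cells, and the arrays themselves do not settle which holds. The sequence of the mature miRNA is shown because it is the agent that differs between the groups. It is taken from RefSeq (GRCh38.p14, chr19:13836447-13836467, minus strand), and the capitals mark its seed, bases 2 to 8:
hsa-miR-27a-3p: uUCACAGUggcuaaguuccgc

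Microtubules are built from heterodimers of an alpha and a beta tubulin, and the beta subunit binds the nucleotide whose hydrolysis drives their growth and shrinkage. The human beta isotypes differ mostly at their acidic C-terminal tails and in where they are made. TUBB and TUBB2C are made in most tissues, TUBB6 is also widespread, TUBB2A, TUBB2B, TUBB3 and TUBB4 are best known from the nervous system, and TUBB1 is the isotype of megakaryocytes and platelets, where it forms the marginal band.

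The 3 pre-control arrays shared 1 slide and the 3 pre-miR-27a arrays another. The effects of slide and of transfection cannot be told apart, and the slides differed in background. The median background that the image analysis subtracted from a spot was 163 to 178 intensity units on the pre-control slide and 69.6 to 73.7 on the other. Of 43376 spots per array, 69.9% to 73.9% were well above background on the former and 74.1% to 78.0% on the latter, and none was saturated. Of 13 myogenic marker genes, 12 passed the filter on found spots, and these 12 were well above background on all 6 arrays. Their summed intensity was 418200, 392370 and 538610 in pre-control replicates 1, 2 and 3 and 370540, 357740 and 502570 in the pre-miR-27a replicates, lower in each pair of the same number. Their log2 fold changes lay below 0 for 10 of the 12. Among them, desmin (DES) had a log2 fold change of -0.01, MyoD (MYOD1) of -0.45 and myogenin (MYOG) of -0.95. None of the 3 passed limma without the replicate block (adjusted p = 0.985, 0.0787 and 0.140). With a block for the replicate number MYOD1 and MYOG did (adjusted p = 0.0363 and 0.0334), as did the muscle cadherin CDH15, at -0.35 (adjusted p = 0.0561 without the block and 0.0457 with it). The fit without the block called 0 of the 12 in either direction, against 7.40% of gene names. The fit with the block called 3 of the 12 lower and 0 higher, against 14.1% of gene names called in either direction. A dimmer probe of CHRNA1, well above background on all 6 arrays, was called higher at 0.95 (adjusted p = 0.0216, and 0.0334 with the block). The brightest CHRNA1 probe gave -0.15 (adjusted p = 0.456).

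Signals below are quantile-normalized log2 intensities, and a log2 fold change is the mean of the pre-miR-27a arrays minus that of the pre-control arrays. Tests are by limma, without the replicate block unless stated, and with Benjamini-Hochberg adjustment over the 36469 probes kept. All 16 beta tubulin probes were kept. The 14 probes of the 7 genes taken by name were well above background on all 6 arrays, whereas the probes of TUBB1 were so on 3 arrays for one probe and on 0 for the other. Different probes of a gene have different brightness, so levels are compared between groups for a probe and never between probes.

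**Figure D1:**
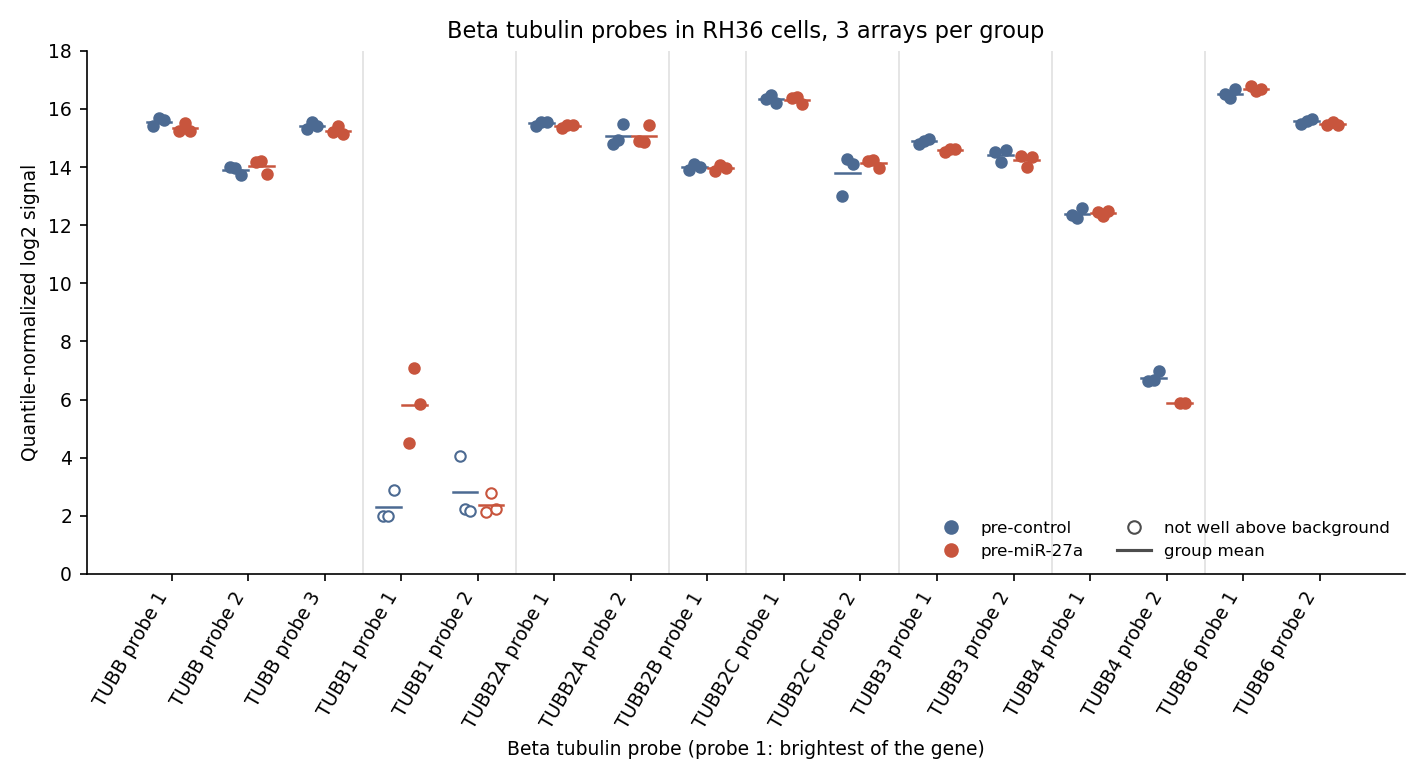
Quantile-normalized log2 signal (vertical axis) of the 16 beta tubulin probes (horizontal axis; probe 1 is the brightest of its gene) on the 3 pre-control arrays (blue) and the 3 pre-miR-27a arrays (red). Points are arrays, horizontal lines are group means and open points are spots not well above background. The groups lie close together for every probe except the first of TUBB1 and the second of TUBB4.

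Of the 14 probes of the 7 beta tubulins taken by name, 1 was called at an adjusted p under 0.05, and it was lower in pre-miR-27a arrays, while 7.83% of all probes kept were called (3.95% higher and 3.88% lower), a share close to that of these probes. The groups did not overlap for 2 of the 14, against 32.5% of all probes kept. At an unadjusted p under 0.05, 2 passed, against 24.8% of all probes. The log2 fold changes ran from -0.87 to 0.35, with 13 of 14 under 0.35 in size. Their median was -0.06, against -0.02 over all probes, and the median size was 0.16, against 0.21. Taking each gene by its brightest probe, 0 of 7 were called, against 7.40% of gene names. By that probe 1 of the 7 passed at an unadjusted p under 0.05, and SAM (significance analysis of microarrays) called 0. In RNA from whole cultures, fewer cells that make a transcript and less of it per cell cannot be told apart. Across the 7 brightest probes the log2 fold changes ran from -0.32 to 0.17, and the 95% confidence intervals together reached from -0.54 to 0.44.

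**Figure D2:**
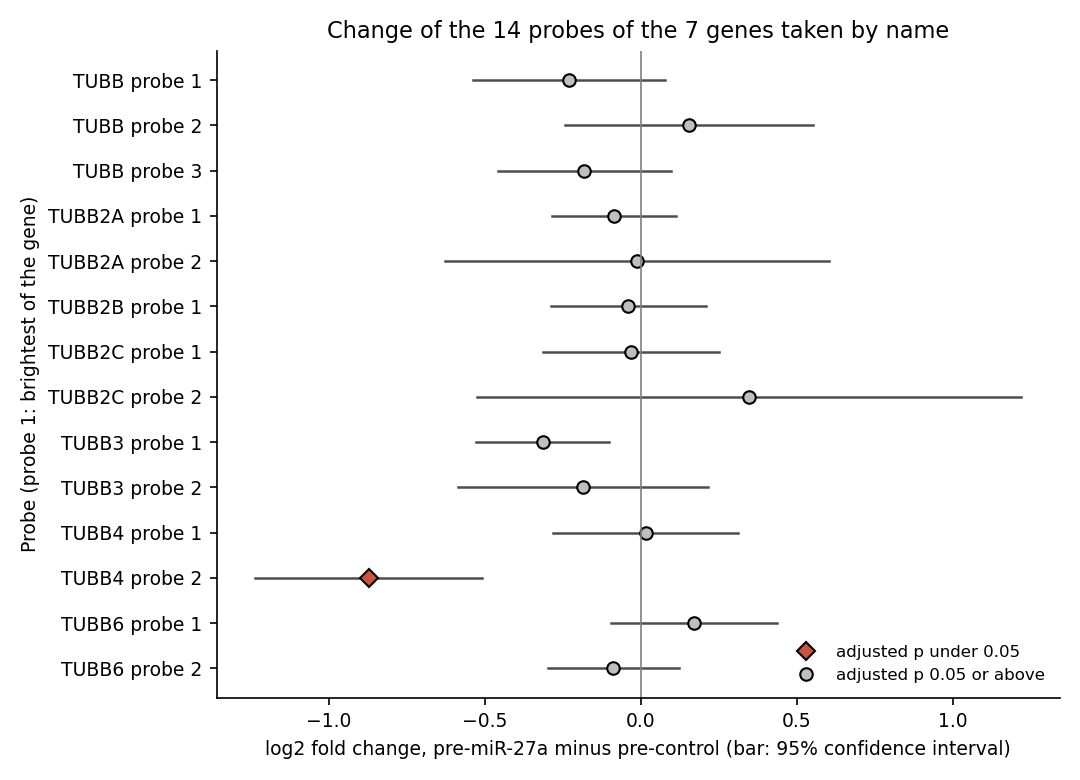
log2 fold change, pre-miR-27a minus pre-control (horizontal axis), of the 14 probes of the 7 genes taken by name (vertical axis; probe 1 is the brightest of its gene), with 95% confidence intervals as bars. The red diamond marks the probe with an adjusted p under 0.05, the second of TUBB4 at -0.87. All others lie between -0.32 and 0.35.

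TUBB, the class I beta tubulin of dividing cells, was measured by 3 probes on chromosome 6. The brightest (hg18 chr6:30799884-30799943) gave 15.39, 15.68 and 15.60 on the pre-control arrays and 15.24, 15.51 and 15.23 on the pre-miR-27a arrays. Both groups overlapped, and the log2 fold change was -0.23 (SE 0.12, 95% confidence interval -0.54 to 0.08, limma adjusted p = 0.320). Another probe (chr6:30799847-30799906), which shares 23 bases with it and is no separate measurement of the transcript, gave -0.18 (adjusted p = 0.385). The remaining probe lies 557 bases from the brightest (chr6:30800501-30800560) and gave 0.15 (adjusted p = 0.616). The TUBB probes thus differed in sign, and none passed the test.

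TUBB2C (TUBB4B), the class IVb isotype of most tissues and of cilia, gave 16.34, 16.47 and 16.20 on the pre-control arrays and 16.37, 16.40 and 16.15 on the pre-miR-27a arrays at its brightest probe (chr9:139257922-139257980). These values overlapped throughout, with a log2 fold change of -0.03 (SE 0.11, 95% confidence interval -0.31 to 0.25, adjusted p = 0.902). Its second probe (chr9:139257467-139257526) gave 12.99, 14.27 and 14.10 against 14.21, 14.24 and 13.96. Pre-control replicate 1 stood below the other 5 arrays here, at a spot that the image analysis marked as an outlier. The log2 fold change of that probe was 0.35 (SE 0.35, adjusted p = 0.603) with the spot and -0.05 without it.

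TUBB6, the class V isotype, had 16.51, 16.38 and 16.69 on the pre-control arrays and 16.78, 16.63 and 16.68 on the pre-miR-27a arrays at its brightest probe (chr18:12316476-12316535). Pre-control replicate 3 lay within the range of the other group. Its log2 fold change was 0.17 (SE 0.11, 95% confidence interval -0.10 to 0.44, adjusted p = 0.395), and -0.01 after 75th percentile scaling. The other probe (chr18:12315997-12316056) gave -0.09 (adjusted p = 0.582).

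TUBB2A and TUBB2B encode the class II isotypes, from neighbouring genes on chromosome 6. The brightest TUBB2A probe (chr6:3099399-3099458) gave 15.41, 15.54 and 15.55 against 15.35, 15.45 and 15.44, with a log2 fold change of -0.09 (SE 0.08, adjusted p = 0.565). In the array files this probe also lists accessions of TUBB2B and TUBB4A, so its signal cannot be given to TUBB2A alone. The second TUBB2A probe (chr6:3099034-3099093) gave 14.80, 14.94 and 15.49 against 14.90, 14.85 and 15.44, with a log2 fold change of -0.01 (SE 0.25, adjusted p = 0.985). Replicate 3 was the highest array of either group at this probe. TUBB2B (chr6:3169750-3169809) gave 13.88, 14.11 and 14.01 against 13.85, 14.07 and 13.96, array for array below the pre-control value of the same number by less than the range within each group. Its log2 fold change was -0.04 (SE 0.10, 95% confidence interval -0.29 to 0.21, adjusted p = 0.852).

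TUBB3, the class III isotype of neurons, was lower on every pre-miR-27a array than on any pre-control array at its brightest probe (chr16:88529436-88529495). That probe gave 14.78, 14.91 and 14.98 on the pre-control arrays and 14.51, 14.61 and 14.60 on those of pre-miR-27a, a log2 fold change of -0.32 (SE 0.09, 95% confidence interval -0.53 to -0.10), with an adjusted p of 0.0878. With the replicate block the adjusted p was 0.0487, in a fit that called 14.1% of gene names, and with a variance trend and robust estimation it was 0.0455. The probe also lists an accession of TUBB6, whose own probes gave 0.17 and -0.09. The second TUBB3 probe (chr16:88529938-88529997), which lists TUBB3 alone, gave 14.53, 14.16 and 14.57 against 14.37, 14.00 and 14.34. Its groups overlapped, and the log2 fold change was -0.18 (SE 0.16, adjusted p = 0.544, and 0.102 with the block). Of 11 other neuron genes kept, 1 was called, against 7.40% of gene names. It was the neurofilament medium chain NEFM, with a log2 fold change of -0.84 (adjusted p = 0.0301, and 0.0543 with the block) and no value on pre-miR-27a replicate 3. A dimmer NEFM probe gave 0.72 (adjusted p = 0.115) and was well above background on 1 pre-control array and 3 pre-miR-27a arrays. With the block the alpha-internexin gene INA was called instead, at -0.29 (adjusted p = 0.0765, and 0.0488 with the block). The median of the 11 was -0.06, with 4 above 0 and 7 below. The largest in size was SYT1 at 1.77 (adjusted p = 0.214), with no value on pre-miR-27a replicate 3. It was well above background on 0 pre-control and 3 pre-miR-27a arrays.

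TUBB4 (TUBB4A), the class IVa isotype of the brain, was the gene whose probes differed most among the 7. The brightest probe (chr19:6446889-6446948) gave 12.33, 12.26 and 12.60 against 12.46, 12.30 and 12.48, with a log2 fold change of 0.02 (SE 0.12, 95% confidence interval -0.28 to 0.31, adjusted p = 0.954). The groups overlapped throughout. The dimmer probe, 1184 bases away (chr19:6445645-6445704), gave 6.62, 6.66 and 6.96 on the pre-control arrays and 5.87 and 5.88 on pre-miR-27a replicates 2 and 3. Its spot on pre-miR-27a replicate 1 was marked as not found and is missing from the fit, although it was well above background. This was the called probe of the 14, with a log2 fold change of -0.87 (SE 0.14, 95% confidence interval -1.24 to -0.51, adjusted p = 0.0361, n = 3 and 2). The call held with no filter on dim probes, which keeps that spot (-0.93, adjusted p = 0.0211), and in the deposited log2 values (-0.93, adjusted p = 0.0161). The call was lost with the replicate block (-0.93, adjusted p = 0.0502), with 75th percentile scaling (-0.93, adjusted p = 0.0502) and whenever any single array was left out (-0.93 to -0.76, adjusted p = 0.0607 to 0.141). Without pre-control replicate 2 or any pre-miR-27a replicate, 0 of all probes were called, so the loss there is not particular to this probe. Leaving out pre-miR-27a replicate 1, missing at this probe, kept the log2 fold change at -0.87 (adjusted p = 0.0843).

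The signal of the dimmer TUBB4 probe was close to the background. Its mean spot intensity was 282, 260 and 326 units on the pre-control arrays and 124, 128 and 132 on the pre-miR-27a arrays. The background subtracted from it was 162, 162 and 177 units in the former group and 68.3, 70.6 and 73.3 in the latter. Above the local background of each spot, 180 to 244 units remained in pre-control and 69.8 to 76.5 in pre-miR-27a cells, without overlap. The dimmer TUBB1 probe, well above background on no array, had 78.8 to 98.8 against 18.1 to 22.7 units by this measure, also without overlap. Neither set of values was normalized between arrays. With normexp correction on the local background the log2 fold change was -0.47 (adjusted p = 0.0454). The part of the slide background in this difference was not tested.

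TUBB1, the isotype of megakaryocytes and platelets, was measured by a pair of probes 1503 bases apart on chromosome 20. At the brighter (chr20:57033076-57033135) the pre-control arrays gave 1.99, 1.99 and 2.90, a mean of 2.29 ± 0.52 (SD, n = 3), and the pre-miR-27a arrays gave 4.50, 7.09 and 5.86, a mean of 5.82 ± 1.30 (SD, n = 3). Every pre-miR-27a array lay above every pre-control array, and the log2 difference of the means was 3.52. No pre-control array was well above background at this probe and all 3 pre-miR-27a arrays were, so the pre-control signal is only a bound. Set against the lowest signals well above background on the pre-control arrays, the pre-miR-27a mean was at least 2.21-fold higher on this scale. The value depends on the background subtracted by the image analysis and is no lower limit under another correction, as normexp gave a log2 difference of 0.94. This bound was 1.42-fold without pre-miR-27a replicate 2 and 3.50-fold without pre-miR-27a replicate 1. The spot on pre-miR-27a replicate 2, the highest of the 6, was marked as an outlier, and the log2 difference was 2.88 without it. These values chose the gene: among named genes past the test with no overlap and all pre-miR-27a arrays well above background, TUBB1 came first at 3.52, and the genes below it included CTAGE1 at 2.21 and CAND1 at 2.11.

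The other TUBB1 probe (chr20:57034639-57034698) was not well above background on any of the 6 arrays. It gave 4.04, 2.24 and 2.15 on the pre-control arrays and 2.13, 2.80 and 2.22 on the pre-miR-27a arrays. The highest value was a pre-control array, and the groups overlapped. No order can be read from signals at this level.

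Before background subtraction, the groups overlapped at the brighter TUBB1 probe as well. The mean spot intensity was 160, 159 and 184 units on the pre-control arrays and 92.4, 215 and 137 on the pre-miR-27a arrays. From these the image analysis subtracted 161, 157 and 173 units on the pre-control arrays and 67.5, 70.6 and 75.02 on the pre-miR-27a arrays. The processed intensities that resulted were 5.84, 6.12 and 9.41 against 21.6, 128 and 53.4, where the first pair were surrogate values set by the software. Above the local background of each spot the probe had 90.0, 88.9 and 104.6 units on the pre-control arrays and 42.4, 161 and 84.2 on the pre-miR-27a arrays. In that view only pre-miR-27a replicate 2 exceeded the pre-control arrays, and the other 2 lay below them. These linear values were not normalized between arrays. By the same measure the other TUBB1 probe, well above background on no array, had 78.8 to 98.8 units on pre-control and 18.1 to 22.7 on pre-miR-27a arrays. What remains at a spot without clear signal thus differed between the slides, and no fall of TUBB1 is read from this order. With normexp on the local background and quantile normalization the log2 difference was 0.94 in place of 3.52.

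**Figure D3:**
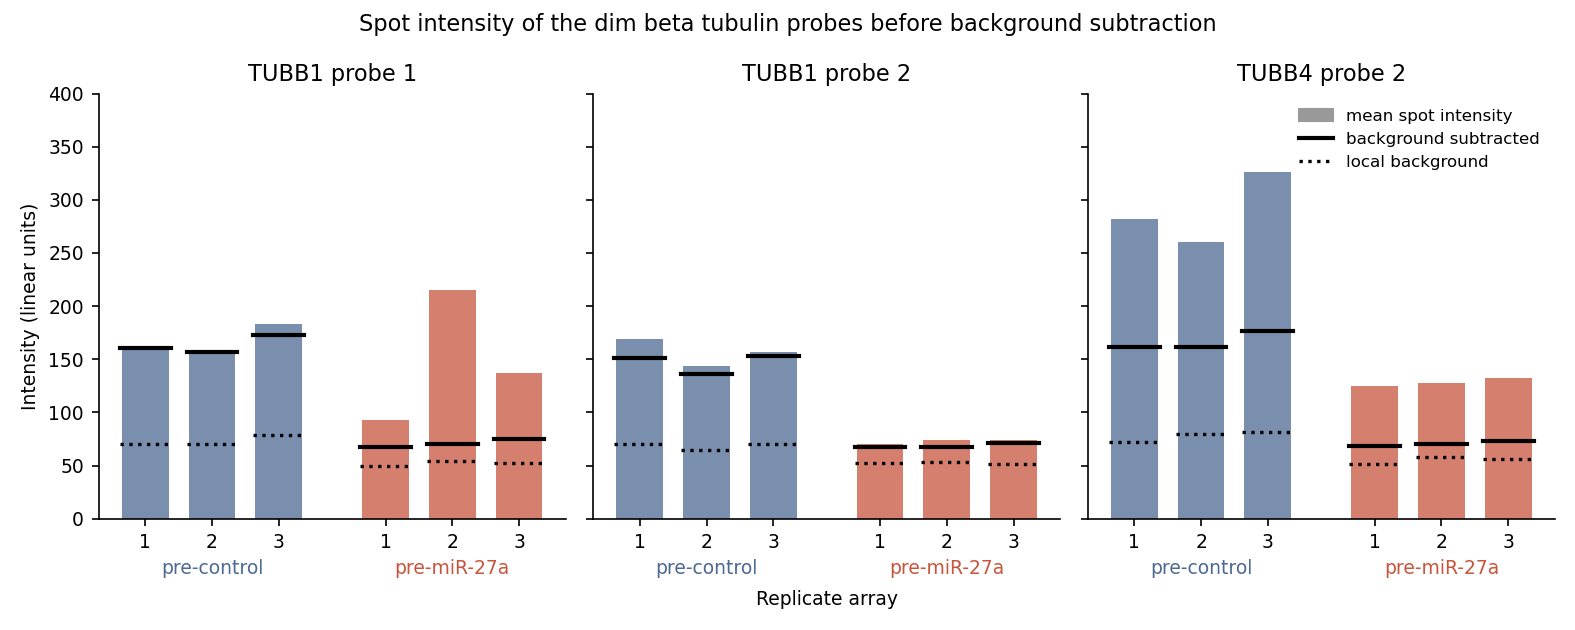
Mean spot intensity in linear units (bars, vertical axis) of both TUBB1 probes and the second TUBB4 probe on each replicate array (horizontal axis), with the background subtracted by the image analysis (solid lines) and the local background of the spot (dotted lines). At TUBB1 probe 1 the bars of the groups overlap, 159 to 184 against 92.4 to 215, while the subtracted background is 157 to 173 on pre-control and 67.5 to 75.02 on pre-miR-27a arrays.

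The passage from no array to all arrays well above background was shared by other probes. In the direction of TUBB1, 329 probes, or 0.902% of those kept, were well above background on 0 of 3 pre-control and 3 of 3 pre-miR-27a arrays, and 3 probes went the opposite way. Above the local background of the spot, 322 of the 329 had lower values on all pre-miR-27a arrays than on any pre-control array, 7 overlapped and 0 were higher. All 3 probes of the opposite pattern were lower by this measure as well. The share over all probes kept was not counted, so these counts are not read as particular to either pattern. The brighter TUBB1 probe was among the 7 that overlapped. The part of the slide background in the rise of TUBB1 was not tested.

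The rise of TUBB1 was set beside markers of megakaryocytes and platelets, where it is best known. Of 14 such genes kept, 0 were called higher and 1 was called lower, the platelet glycoprotein GP9 with a log2 fold change of -0.51 (adjusted p = 0.0278, and 0.0412 with the block), against 3.07% and 4.33% of all gene names, and 13 of the 14 had a value below 0. Their median was -0.30, against -0.04 over all genes. The defining markers PF4, a platelet chemokine, and ITGA2B, the platelet integrin alpha IIb, had log2 fold changes of -0.13 (adjusted p = 0.694) and -0.39 (adjusted p = 0.114). PF4 was well above background on 0 pre-control and 2 pre-miR-27a arrays, and ITGA2B on all 6. In the list 9 genes were so on all 6 arrays, and GATA1, PPBP and F2RL3 on none. With the block 4 were called lower, against 14.1% of gene names called in either direction. Besides GP9 these were NFE2, a transcription factor of the lineage, at -0.42 (adjusted p = 0.341, and 0.0489 with the block), the platelet glycoprotein GP1BA at -0.61 (adjusted p = 0.223, and 0.0342 with the block) and PPBP (adjusted p = 0.589, and 0.0398 with the block). A dimmer GP1BA probe passed, like TUBB1, from 0 of 3 to 3 of 3 arrays well above background (adjusted p = 0.172). The summed intensity of the list ranged between 12780 and 14570 in pre-control cells and between 10808 and 13507 in pre-miR-27a cells. The genes whose brightest probe followed TUBB1 most closely over the 6 arrays, each about its own mean, were APCDD1L, P2RY1 and ANKRD18A, among 11981 candidates. Their root mean square differences from TUBB1 were 0.997, 1.01 and 1.16 log2 units, where the spread of TUBB1 about its own mean was 1.94. P2RY1 and ANKRD18A, both well above background on all 6 arrays, had log2 differences of 2.00 and 1.84. APCDD1L was well above background on 1 of the 6, and no difference is given for it.

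The other genes of the tubulin pathway were read from 6 lists, each gene by its brightest probe. Of 94 genes kept, 0 were called higher and 1 lower, against 3.07% and 4.33% of all gene names. The median log2 fold change was 0.00, with 47 above and 47 below 0, against a median of -0.04 over all genes. Without adjustment 23 passed at p under 0.05, against 23.8% of gene names. With the replicate block 3 were called higher and 3 lower, that is 6 of 94, against 14.1% of gene names.

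Alpha tubulins, the partners of the beta subunits in the heterodimer, had 8 genes on the array, and 0 were called. TUBA1A had a log2 fold change of -0.13, TUBA1B of -0.09, TUBA1C of -0.08 and TUBA3D of -0.04, while TUBA4A had 0.06 and TUBA8 0.01. The largest in size among alpha tubulins with signals well above background was TUBA3C, at -0.35 (SE 0.22, adjusted p = 0.406). TUBAL3 had no array well above background. The median over the 8 genes was -0.06, and over the 7 beta tubulin genes by brightest probe it was -0.04. A dimmer TUBA3D probe, also well above background on all 6 arrays, gave -0.54 (adjusted p = 0.0597, and 0.0478 with the block).

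The other tubulins comprised 5 genes, and 0 were called. Gamma tubulin, which nucleates microtubules at the centrosome, had log2 fold changes of 0.03 for TUBG1 and 0.03 for TUBG2. Epsilon tubulin (TUBE1), a centriole component, was at -0.00. Delta tubulin (TUBD1), which also belongs to centrioles, had 0.36 (SE 0.10, adjusted p = 0.0997, and 0.0418 with the block). TUBB8, a further beta isotype that was not in the rule, had -0.25 (SE 0.10, adjusted p = 0.193).

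The genes that fold tubulin and assemble the heterodimer, among them chaperonin subunits and tubulin cofactors, gave 0 calls among 24, a median of 0.04 and a range of -0.30 to 0.26. TTC5, which recognizes nascent tubulin chains in the autoregulation of tubulin mRNA, had -0.15 (SE 0.11, adjusted p = 0.470). Microtubule nucleation genes gave 0 calls among 8 and a median of 0.09. NEDD1, which brings the gamma tubulin ring complex to the spindle, had 0.51 (adjusted p = 0.139, and 0.0402 with the block). Genes of microtubule stability and dynamics gave 0 calls among 28, a median of 0.03 and a range of -0.91 to 0.44. The lowest was STMN2, a neuronal relative of stathmin, at -0.91 (SE 0.28, adjusted p = 0.112). MAP1A, a microtubule-associated protein, had -0.41 (adjusted p = 0.150, and 0.0493 with the block).

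Tubulin-modifying enzymes held the called gene. AGBL3, a carboxypeptidase that trims tubulin tails, fell by 0.67 on the log2 scale (SE 0.13, 95% confidence interval -0.99 to -0.36, limma adjusted p = 0.0381). Its arrays gave 8.94, 9.18 and 8.79 in pre-control and 8.35, 8.36 and 8.17 in pre-miR-27a cells, without overlap. A second AGBL3 probe gave 0.83 (adjusted p = 0.509) and was well above background on 1 array. The AGBL3 call was lost with SAM and whenever any single array was left out, when 0 pathway genes were called. Without pre-control replicate 2 or any pre-miR-27a replicate, 0 of all probes were called, so the loss there is not particular to AGBL3. This list had 21 genes and a median of -0.10, with 15 below 0. With the block AGTPBP1, which removes glutamates from tubulin tails, was called higher (0.35, adjusted p = 0.0414 against 0.118 without the block), and SIRT2, a tubulin deacetylase, was called lower (-0.35, adjusted p = 0.0422 against 0.174).

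Of 149 pathway probes kept, 1 was called lower, the brightest of AGBL3, and 3 were called higher, against 3.88% and 3.95% of all probes kept. The 3 higher calls were of dimmer probes, which are named after their values were seen. They lay in PCNT (1.49, adjusted p = 0.0210), CLIP1 (1.07, adjusted p = 0.0293) and MAPRE2 (1.96, adjusted p = 0.0281, well above background on no pre-control array). Each was higher in pre-miR-27a cells, while the brightest probe of the same gene was not called.

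**Figure D4:**
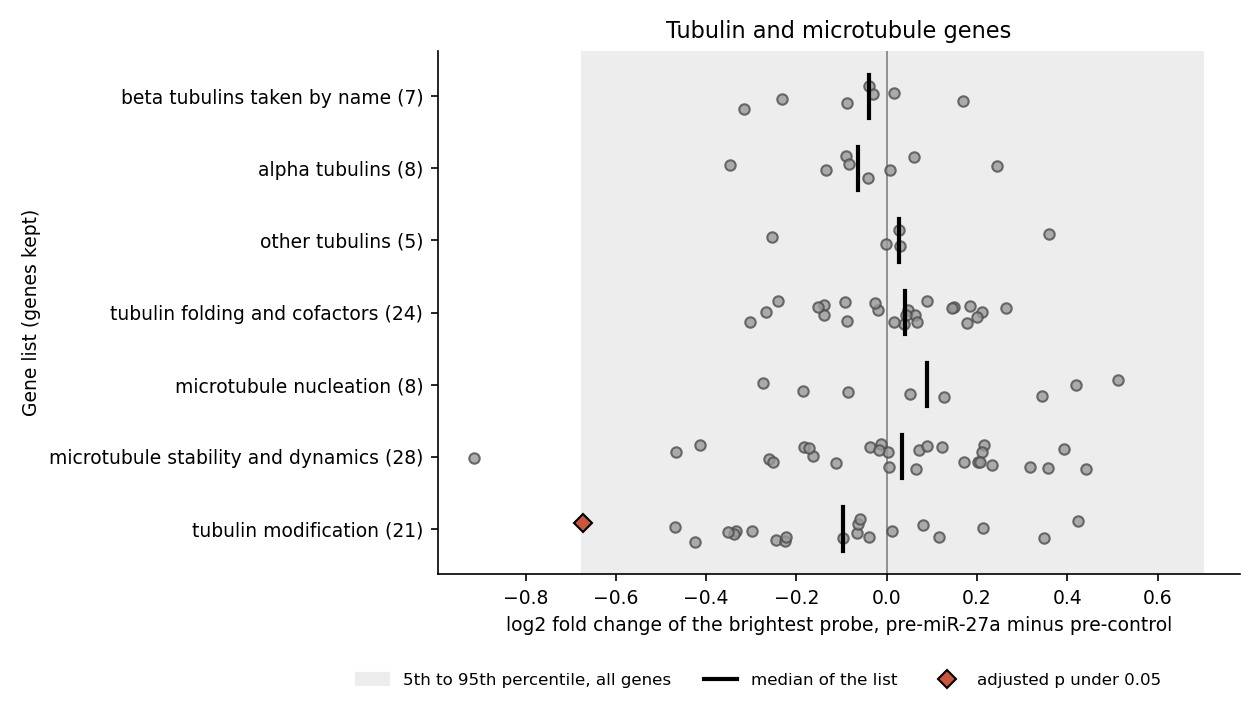
log2 fold change of the brightest probe, pre-miR-27a minus pre-control (horizontal axis), of the 7 beta tubulins taken by name and of the genes of 6 tubulin pathway lists (vertical axis, with the number of genes kept). Points are genes, black lines are list medians, the grey band runs from the 5th to the 95th percentile of all gene names and the red diamond is AGBL3 at -0.67, the gene with an adjusted p under 0.05. The medians lie between -0.10 and 0.09.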

How the data were processed

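For every spot of the 6 arrays the authors deposited the intensity from Agilent Feature Extraction, with a spatially fitted background subtracted, and the mean spot intensity, local background and quality flags. They also deposited a table of quantile-normalized log2 values of 33169 probes, in which 0 per-sample columns were left unused. Log2 processed intensities were quantile normalized, spots marked as not found were set to missing, spots of a probe were averaged and probes with over 1 missing array were removed. Groups followed the labels. limma 3.58.1 in R 4.3.3 compared them, with a threshold of 0.05 (tables were read with version 1.17.8 of data.table), after a test on simulated data. Figures were drawn with matplotlib.

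Same-numbered arrays deviated together (correlation 0.396, 0.456 and 0.409 over 31717 probes, against -0.266 to -0.123 for different numbers, limit 0.1). Deviations were taken from the mean of each group, so positive values for the same number force negative ones for different numbers. The numbers of the labels were therefore used as a block in an alternative fit. The main tests and intervals, and SAM, treat the arrays as unpaired. Each number also matches the position on its slide. Values with the block are printed where the call of a named probe changed.

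Members and gene lists were chosen with earlier results of these data known. Named were all member probes, all other tubulins, called list genes (up to 4 per direction), TTC5, MYOD1, MYOG, DES, PF4, ITGA2B and the 3 genes most like TUBB1. Genes of chromosome Y were left out of the latter after the data were seen. List genes called by their brightest probe only with the block, and others named for their values, were added, and 1 gene is not reported here. Probe positions come from the files (hg18), and current names are from RefSeq of GRCh38.p14. The number of arrays limits the precision: 3 arrays against 3 cannot give an exact two-sided p below 0.1.

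Alternatives were 75th percentile scaling, normexp (offset 50), other filters on dim probes and flags, the deposited log2 values, the replicate block, a variance trend with robust estimation, SAM with 20 relabellings at 5%, the mean of all probes of a gene and leaving out each array. Spot intensities above local background and the TUBB1 bound without single arrays were added after the data were seen.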

Additional observations from a re-analysis of the deposited data

How the results depend on the processing

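Leaving out any single array left 0 beta tubulin probes and 0 pathway genes called, against 1 each with all arrays, and 0 to 1219 of all probes, against 2856 (1219 without pre-control replicate 1, 83 without pre-control replicate 3, 0 without any other), with 7379 to 8748 of all probes at an unadjusted p under 0.05. The replicate block gave 5421 of all probes (14.9%), 1 beta tubulin gene (TUBB3), against 0, and 6 pathway genes. Besides TUBB3 gaining and the dimmer TUBB4 probe losing its call, it changed no call of a beta tubulin taken by name. The variance trend with robust estimation gave 2 beta tubulin probes, 1 beta tubulin gene and 4 pathway genes. SAM was run unpaired, on the 31717 probes with no missing array, and called 1815 of them. It called 0 of 13 beta tubulin probes and 0 of 89 pathway genes. The dimmer TUBB4 probe has a missing array and was not tested by SAM. Scaling by the 75th percentile left 0 beta tubulin probes, moved the median of all probes from -0.02 to -0.09 and the share of calls that were higher from 50.42% to 39.16%. Normexp gave 4 pathway genes and the filter on probes well above background 2.

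Signs turned for the log2 fold changes of TUBB2B, TUBB2C, TUBB4 and TUBB6. Without single arrays TUBB2B ran from -0.099 to 0.015, above 0 without pre-control replicate 2 or pre-miR-27a replicate 1. TUBB2C ran from -0.10 to 0.046, above 0 without pre-control replicate 2 or pre-miR-27a replicate 3, and was 0.16 as the mean of its probes. TUBB4, at its brightest probe, ran from -0.053 to 0.12, below 0 without pre-control replicate 1 or 2 or pre-miR-27a replicate 1 or 3, and was -0.041 after 75th percentile scaling. TUBB6 was -0.015 after 75th percentile scaling. The log2 difference of the brighter TUBB1 probe was 0.94 with normexp, 3.06 with 75th percentile scaling, 1.55 as the mean of both probes and 2.88 to 4.18 without single arrays. TUBB4 was 0.67 (SE 0.94) as the mean of its probes, where pre-miR-27a replicate 1 has a value at the brighter probe only. The deposited table and the filter on positive and significant spots gave TUBB1 no value. The cause of these differences was not tested. TUBB1 and the dimmer TUBB4 probe are limited by their signal over background.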
